A study of Caenorhabditis elegans with 14 samples.

Results

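Larvae of the first stage (L1) of *Caenorhabditis elegans* were sequenced in 6 of the 14 libraries of the series, and the 3 of them titled replicate 2 were compared here with the 3 titled replicate 1. The members were chosen by their titles alone, and every gene of the count files entered the comparison. Each replicate number held 1 library of *nfki-1(cer2)*, 1 of *ikb-1(cer9)* and 1 of the wild type, N2(Bristol), so that the libraries were paired by strain. *nfki-1* and *ikb-1* are the worm homologs of the mammalian IκB proteins. The *cer2* allele is a deletion with an insertion in the second exon of *nfki-1* that introduces an early stop, and the *cer9* allele is a deletion of *ikb-1* that takes away its start codon. All 6 collections were synchronized whole animals, kept at 25 °C, fed for 5 h and then starved for 3 h, and washed free of bacteria in M9 buffer. The other 8 libraries were of a later larval stage, L4, and were not used. The labels give 2 replicates of each L1 strain, while the design text of the series gives 1. Neither the labels nor the methods say whether the replicate numbers mark separate cultures, days or sequencing runs, so the p-values measure only the spread between these libraries, which may be technical.

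As background, a larva that hatches without food stays in L1 arrest, and food releases it into growth, cell division and the first molt. The insulin pathway is central to this choice. Insulin-like peptides act through the receptor DAF-2 and the kinases PDK-1 and AKT to keep the FOXO factor DAF-16 out of the nucleus. Oxygen is read by a separate pathway, in which the prolyl hydroxylase EGL-9 marks the factor HIF-1 for removal through VHL-1. At low oxygen, or when hydrogen sulfide engages the sensor CYSL-1, this removal stops, and HIF-1 induces genes that include its own regulators *egl-9* and *rhy-1* and the enzymes of sulfide and cyanide detoxification.

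Levels are given as CPM, a depth-scaled unit that sets the reads of a gene against all reads on genes of the library after TMM scaling, in the order WT, *nfki-1(cer2)*, *ikb-1(cer9)*, and a fold change is replicate 2 over replicate 1 on the log2 scale with its standard error (SE, or the value after ±). This SE is the size of the fold change divided by the square root of the F statistic of edgeR's test. It was not estimated separately and is approximate. The mutated genes were read first. *ikb-1* had 48.1, 40.7 and 2.76 CPM in the replicate 2 libraries, against 53.1, 40.8 and 1.63 CPM in the replicate 1 libraries. It was thus low in both libraries labelled *ikb-1(cer9)* and in no other. *nfki-1* (C33A11.1) had 147, 75.4 and 145 CPM in the replicate 2 libraries, against 158, 99.1 and 178 CPM in the replicate 1 libraries, and was lowest in both libraries labelled *nfki-1(cer2)*.

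Reads on genes numbered 57740500 to 63394016 in the replicate 2 libraries and 58311928 to 60926964 in the replicate 1 libraries, and reads on no gene made up 14.3 to 16.18% of the replicate 2 files and 15.5 to 18.4% of the replicate 1 files. The replicate 2 libraries held reads of 24921 to 25530 genes, against 26421 to 27053 genes in the replicate 1 libraries. In the principal components of the 500 most variable genes, the first component (62.4% of the variance) placed the replicate 2 libraries at 31.7, 20.6 and 19.2 and the replicate 1 libraries at -29.2, -25.5 and -16.8. The first component thus separated the libraries by replicate number. The second component (15.2%) spread the replicate 2 libraries from -15.95 in WT to 23.9 in *ikb-1(cer9)*, while the replicate 1 libraries lay between -3.98 and 2.88. Over all tested genes the second component (16.13%) spread the libraries of both replicate numbers, from -29.3 to 36.9 in replicate 2 and from -36.7 to 13.1 in replicate 1.

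Of 18280 genes tested, 723 were higher in replicate 2 (3.96% of those tested) and 536 were lower (2.93%) at an adjusted p below 0.05 in edgeR's quasi-likelihood test with Benjamini-Hochberg adjustment. These are the calls meant below by "rose" and "fell". The log2 fold change was at least 1 in 408 of the genes that rose and at most -1 in 333 of those that fell. With library totals in place of TMM factors the median log2 fold change of all tested genes moved to -0.19, against -0.02, and the calls became 651 higher and 1748 lower. The counts leaned on the WT and *nfki-1(cer2)* pairs. Without the WT libraries 39 genes rose and 11 fell, without the *nfki-1(cer2)* libraries 108 rose and 53 fell, and without the *ikb-1(cer9)* libraries 1867 rose and 1169 fell.

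The HIF-1 pathway and its sulfide enzymes formed the gene group with the highest share of calls among the 54 lists with a tested member. The lists were written with earlier results of these data known, so this rank is a description only. Of 12 genes, 9 rose (75%, where 3.96% of all tested genes rose) and none fell. Their median log2 fold change was 2.49, beside -0.02 for all tested genes, and it was 2.62, 2.60 and 2.15 within the pairs, in the strain order above. Between 6 and 10 members rose under each other test, scaling, filter and set of strains tried at the same threshold, and the median lay between 2.27 and 2.81. At an adjusted p below 0.01, 3 of the 12 genes remained called.

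The regulators of HIF-1 came first. *rhy-1* (chromosome II, 9161379 to 9163448) encodes a membrane protein of the endoplasmic reticulum that holds HIF-1 activity down and is itself a HIF-1 target. It had 285, 414 and 217 CPM in the replicate 2 libraries, against 19.8, 14.4 and 12.9 CPM in the replicate 1 libraries. The lowest replicate 2 library was above the highest replicate 1 library, as for 17.6% of all tested genes (log2 fold change 4.25, SE 0.23, edgeR adjusted p = 0.00307). Its exons share 82 of 1668 bases with W07A12.8 on the other strand, which did not pass the test (log2 fold change 0.06). *egl-9*, the oxygen-sensing hydroxylase, had 469.8, 357 and 449 CPM in the replicate 2 libraries, against 91.0, 123 and 104.4 CPM in the replicate 1 libraries. Every replicate 2 library was above every replicate 1 library, as for 17.6% of all tested genes (log2 fold change 2.00, SE 0.19, edgeR adjusted p = 0.0103).

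*hif-1* itself had 675, 680.2 and 685 CPM in the replicate 2 libraries, against 619, 628 and 719 CPM in the replicate 1 libraries, and these ranges overlapped (log2 fold change 0.06, SE 0.14, edgeR adjusted p = 0.812). The mRNA of the factor itself was thus not called, while those of 9 other genes of its pathway were. *vhl-1*, the subunit that recognizes hydroxylated HIF-1, had 6.02, 5.88 and 3.77 CPM in the replicate 2 libraries, against 6.17, 8.002 and 6.50 CPM in the replicate 1 libraries, and did not pass the test (adjusted p = 0.204, edgeR). *cysl-1*, the sulfide sensor that binds EGL-9, had 178, 150.4 and 131 CPM in the replicate 2 libraries, against 64.03, 75.5 and 101 CPM in the replicate 1 libraries. It was higher in all 3 strains but stood just outside the threshold (log2 fold change 0.95, SE 0.21, edgeR adjusted p = 0.0521).

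**Figure D1:**
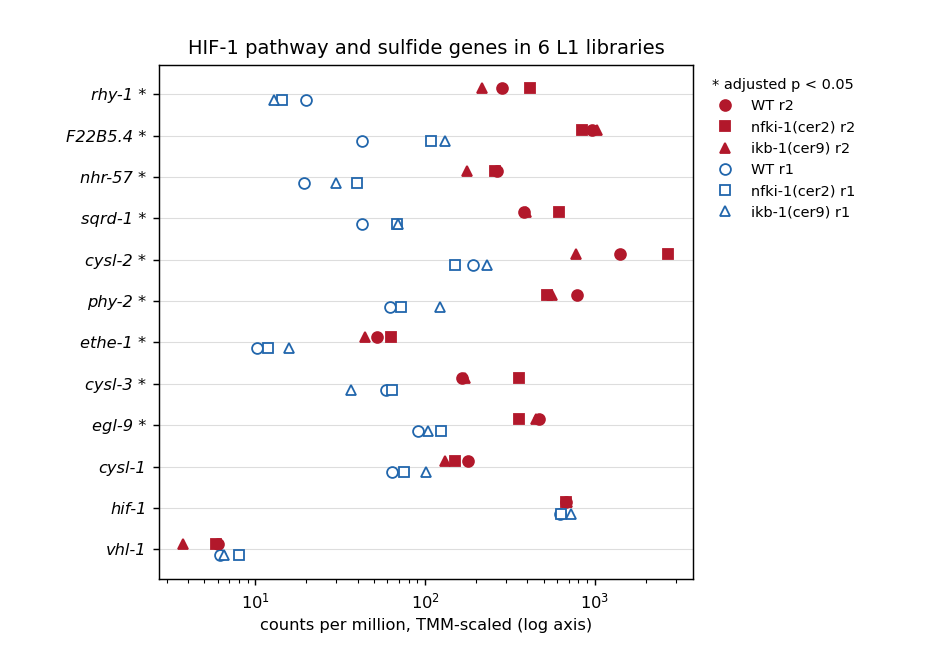
Levels of the 12 HIF-1 pathway and sulfide genes in each L1 library, in TMM-scaled CPM on a log axis, with replicate 2 (r2) filled above and replicate 1 (r1) open below in each row, and an asterisk for an adjusted p below 0.05. The filled symbols lie to the right of the open ones for the 9 called genes and for *cysl-1*, while *hif-1* lies between 619 and 719 CPM in all 6 libraries.

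The enzymes of sulfide and cyanide handling rose with them. *sqrd-1* (chromosome IV, 14219871 to 14224440), the mitochondrial sulfide:quinone oxidoreductase, had 382, 613 and 393 CPM in the replicate 2 libraries, against 42.3, 68.1 and 69.4 CPM in the replicate 1 libraries (log2 fold change 2.95, SE 0.18, edgeR adjusted p = 0.00363). *ethe-1*, the persulfide dioxygenase that acts after it, had 51.8, 63.0 and 44.2 CPM in the replicate 2 libraries, against 10.2, 11.8 and 15.9 CPM in the replicate 1 libraries (log2 fold change 2.08, SE 0.21, edgeR adjusted p = 0.0112). In both genes every replicate 2 library was above every replicate 1 library, as for 17.6% of all tested genes. *cysl-2*, a cyanoalanine synthase, had 1409, 2711 and 778 CPM in the replicate 2 libraries, against 192, 149.9 and 231 CPM in the replicate 1 libraries (log2 fold change 2.93, SE 0.46, edgeR adjusted p = 0.0260), and the *nfki-1(cer2)* replicate 2 library was the highest. *cysl-3*, of the same family, had 165, 358 and 171 CPM in the replicate 2 libraries, against 59.0, 63.5 and 36.5 CPM in the replicate 1 libraries (log2 fold change 2.07, SE 0.21, edgeR adjusted p = 0.0112), again highest in *nfki-1(cer2)* replicate 2.

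The last 3 members are established HIF-1 targets of other kinds. *nhr-57* (chromosome V, 4131889 to 4135102), a nuclear hormone receptor gene whose promoter is widely used as a HIF-1 reporter, had 263, 258 and 175 CPM in the replicate 2 libraries, against 19.3, 39.6 and 29.9 CPM in the replicate 1 libraries (log2 fold change 3.00, SE 0.26, edgeR adjusted p = 0.00887). Its neighbour *lgc-1*, which shares 16 exonic bases with it on the same strand, rose by a log2 fold change of 1.21 (adjusted p = 0.0309, edgeR). *phy-2*, a subunit of the collagen prolyl 4-hydroxylase, had 780.5, 518.99 and 561 CPM in the replicate 2 libraries, against 61.8, 72.4 and 122 CPM in the replicate 1 libraries (log2 fold change 2.90, SE 0.29, edgeR adjusted p = 0.0112). *dpy-18*, which encodes the other main subunit of that enzyme and was not on the list, had 197, 209 and 173 CPM in the replicate 2 libraries, against 50.8, 58.4 and 58.6 CPM in the replicate 1 libraries, with no overlap (log2 fold change 1.79, SE 0.13, edgeR adjusted p = 0.00647). The levels of *nhr-57*, *phy-2* and *dpy-18* did not overlap between the replicate numbers, as for 17.6% of all tested genes in this direction. F22B5.4, an unnamed target, had 962, 841 and 1025 CPM in the replicate 2 libraries, against 42.2, 109 and 131 CPM in the replicate 1 libraries (log2 fold change 3.46, SE 0.35, edgeR adjusted p = 0.0116).

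The 12 largest increases were chosen among genes of at least 10 CPM on average that moved the same way in all 3 strains, and *rhy-1*, F22B5.4 and *nhr-57* were 3 of them. The other 9 had log2 fold changes between 3.02 and 4.15. *dpf-6*, of the dipeptidyl peptidase family, had 237, 87.4 and 58.3 CPM in the replicate 2 libraries, against 5.11, 6.72 and 6.07 CPM in the replicate 1 libraries, and was highest in WT (log2 fold change 4.15, SE 0.46, edgeR adjusted p = 0.0136). *rips-1* (R08E5.3), a predicted methyltransferase gene tied to the RHY-1 and sulfide response, had 136, 512 and 143 CPM in the replicate 2 libraries, against 38.4, 20.4 and 20.4 CPM in the replicate 1 libraries, and was highest in *nfki-1(cer2)* (log2 fold change 3.07, SE 0.53, edgeR adjusted p = 0.0316). *rips-1* and *cysl-3* are neighbours on chromosome V and share 74 exonic bases on opposite strands. *gst-19*, a glutathione S-transferase gene, was likewise highest in *nfki-1(cer2)*, with 67.4, 161 and 55.6 CPM in the replicate 2 libraries, against 9.22, 6.57 and 10.0 CPM in the replicate 1 libraries (log2 fold change 3.30, SE 0.42, edgeR adjusted p = 0.0185).

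*mxl-3*, a Max-like factor that represses lysosomal lipase genes in fed worms, had 229, 208 and 254 CPM in the replicate 2 libraries, against 12.98, 26.1 and 31.2 CPM in the replicate 1 libraries. The replicate 2 libraries were close to each other and all above replicate 1, the latter as for 17.6% of all tested genes (log2 fold change 3.38, SE 0.26, edgeR adjusted p = 0.00672). The small heat shock gene *hsp-12.3* had 177, 133 and 232 CPM in the replicate 2 libraries, against 6.68, 17.2 and 42.5 CPM in the replicate 1 libraries (log2 fold change 3.33, SE 0.44, edgeR adjusted p = 0.0193), and its neighbour *hsp-12.6* rose too, by 2.89 ± 0.43 on the log2 scale. Of the 12 genes on a list named for inducible heat shock, 6 were at 0 in all 6 libraries. Only these 2 rose among the 6 tested (33.3%, where 3.96% of all tested genes rose). No other tested member had a log2 fold change above 0, and the median of the 6 was -0.39. Reads that align to more than 1 gene copy were not counted, so a count of 0 does not show that a gene was silent. *mlt-10*, a secreted protein needed for molting, had 34.5, 19.6 and 26.4 CPM in the replicate 2 libraries, against 2.34, 2.65 and 4.15 CPM in the replicate 1 libraries (log2 fold change 3.13, SE 0.26, edgeR adjusted p = 0.00777). F18E3.13, F43H9.4 and F13B12.4, for which no role is given here, rose by 3.12 ± 0.18, 3.02 ± 0.30 and 3.04 ± 0.42 on the log2 scale.

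**Figure D2:**
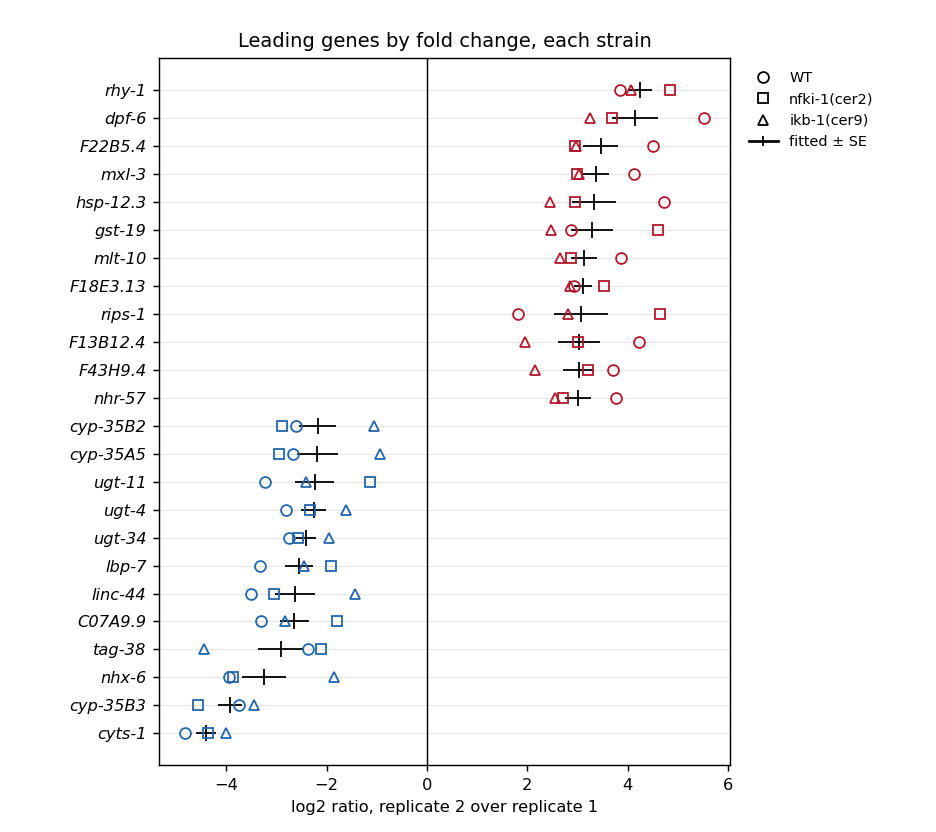
Log2 ratio of replicate 2 over replicate 1 within WT (circles), *nfki-1(cer2)* (squares) and *ikb-1(cer9)* (triangles) for the 12 largest increases and the 12 largest decreases, with the fitted log2 fold change and its SE as a bar. For each gene the 3 pairs lie on the same side of 0, as the choice of these genes required, and the spread between strains is wide for *rips-1* and *hsp-12.3* and narrow for F18E3.13 and *cyts-1*.

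Among the 12 largest decreases, 6 were cytochrome P450 and glucuronosyltransferase genes, whose enzymes modify drugs and other lipid-soluble molecules. *cyts-1* (F01D4.8; chromosome IV, 10450733 to 10453101) had the largest decrease, with 1.3, 1.88 and 1.91 CPM in the replicate 2 libraries, against 37.6, 39.1 and 31.1 CPM in the replicate 1 libraries (log2 fold change -4.41, SE 0.20, edgeR adjusted p = 0.00307). It lies beside F13B12.4, which rose. *cyp-35B3*, a cytochrome P450 gene, had 2.64, 1.101 and 1.49 CPM in the replicate 2 libraries, against 35.6, 26.8 and 16.55 CPM in the replicate 1 libraries (log2 fold change -3.92, SE 0.24, edgeR adjusted p = 0.00363). In both genes the replicate 2 libraries were all under 3 CPM.

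The *cyp-35* genes that fell are neighbours on chromosome V, where *cyp-35A5*, *cyp-35B1*, *cyp-35B2* and *cyp-35B3* run from 3936326 to 3947044. *cyp-35B2* had 6.98, 4.03 and 14.3 CPM in the replicate 2 libraries, against 42.8, 30.2 and 29.6 CPM in the replicate 1 libraries (log2 fold change -2.18, SE 0.37, edgeR adjusted p = 0.0298), and *cyp-35A5* had 2.80, 3.18 and 5.99 CPM in the replicate 2 libraries, against 17.98, 24.9 and 11.4 CPM in the replicate 1 libraries (log2 fold change -2.18, SE 0.40, edgeR adjusted p = 0.0355). *cyp-35B1* fell (log2 fold change -1.98 ± 0.35). These copies are similar in sequence, and reads that align to more than 1 of them were not counted, so the share of each copy is uncertain. The glucuronosyltransferase genes *ugt-34*, *ugt-4* and *ugt-11* fell, with log2 fold changes of -2.41 ± 0.19, -2.25 ± 0.25 and -2.24 ± 0.39.

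The other leading decreases were of mixed kinds. *lbp-7*, an intracellular fatty acid binding protein gene, had 2.97, 5.66 and 3.85 CPM in the replicate 2 libraries, against 29.98, 21.2 and 21.1 CPM in the replicate 1 libraries (log2 fold change -2.55, SE 0.28, edgeR adjusted p = 0.0129). *nhx-6*, a sodium/proton exchanger gene, had 1.45, 1.93 and 2.36 CPM in the replicate 2 libraries, against 22.8, 28.5 and 8.63 CPM in the replicate 1 libraries (log2 fold change -3.25, SE 0.44, edgeR adjusted p = 0.0193), with the smallest difference in *ikb-1(cer9)*. C07A9.9, *tag-38* and the long noncoding RNA *linc-44* fell, with log2 fold changes of -2.64 ± 0.29, -2.92 ± 0.46 and -2.63 ± 0.40. For these 5 genes no library of replicate 2 reached the lowest of replicate 1, as for 19.9% of all tested genes.

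**Figure D3:**
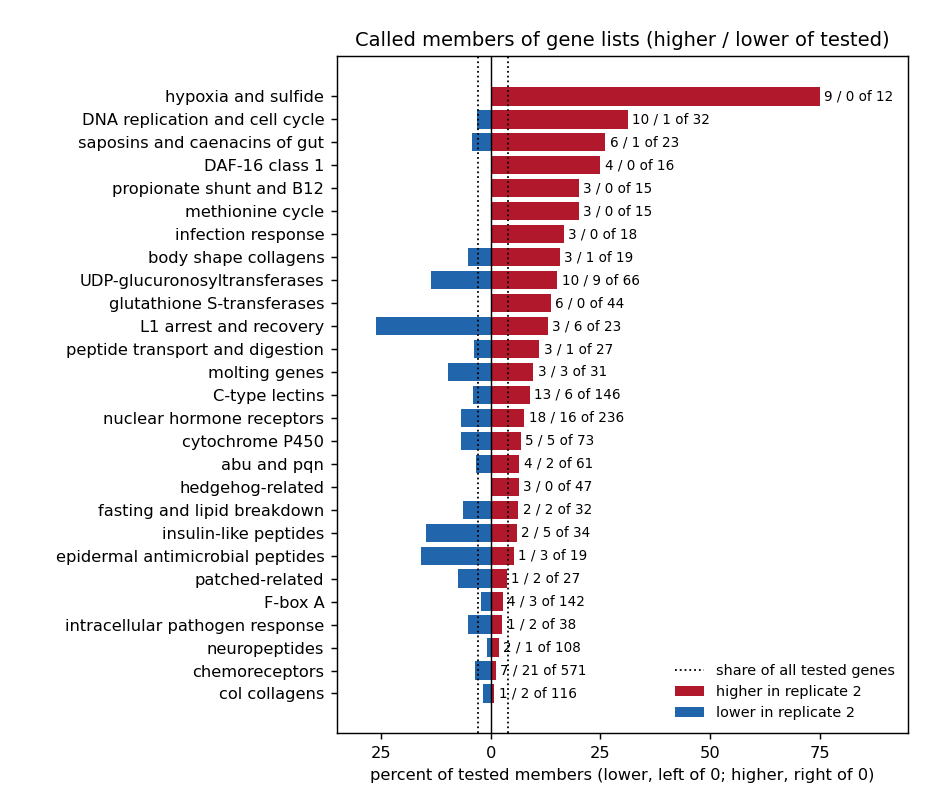
Share of tested members that rose (red, right) or fell (blue, left) in replicate 2 for the 27 gene lists with at least 3 called members, with the counts beside the bars and dotted lines at the share of all tested genes (3.96% higher, 2.93% lower). The HIF-1 and sulfide list stands at 75% higher, and the arrest and recovery list has the longest bar on the lower side, with 6 of 23.

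Genes of L1 arrest and recovery moved in both directions. Of 23 tested, 3 rose and 6 fell, a share called of 39.1% against 6.89% of all tested genes. Their median log2 fold change was -0.04, near that of all genes (-0.02). The 3 that rose are the kinases that pass on the insulin signal. *akt-1* had 314, 263 and 339 CPM in the replicate 2 libraries, against 160.4, 142 and 200.1 CPM in the replicate 1 libraries (log2 fold change 0.87, SE 0.12, edgeR adjusted p = 0.0193). *akt-2* rose by 0.76 ± 0.10 on the log2 scale and *pdk-1* by 0.83 ± 0.17. The log2 fold change of the receptor gene *daf-2* was 0.05 ± 0.14 and that of the kinase gene *age-1* -0.24 ± 0.12, neither past the threshold.

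*daf-16*, the FOXO factor that these kinases hold back, fell. It had 43.2, 43.5 and 45.2 CPM in the replicate 2 libraries, against 162, 83.0 and 129.5 CPM in the replicate 1 libraries (log2 fold change -1.45, SE 0.20, edgeR adjusted p = 0.0194). The replicate 2 libraries agreed within 2 CPM, while the replicate 1 libraries were spread. *hlh-30*, the TFEB homolog that drives autophagy and lipid breakdown in fasting and opposes *mxl-3*, had 81.0, 83.3 and 87.5 CPM in the replicate 2 libraries, against 223, 159 and 247 CPM in the replicate 1 libraries (log2 fold change -1.298, SE 0.15, edgeR adjusted p = 0.0157). It fell in all 3 strains, the opposite direction to *mxl-3*. *cki-1*, the cyclin-dependent kinase inhibitor that holds cells in arrest, had 21.6, 20.02 and 15.5 CPM in the replicate 2 libraries, against 38.5, 34.7 and 31.8 CPM in the replicate 1 libraries (log2 fold change -0.89, SE 0.12, edgeR adjusted p = 0.0190).

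*daf-7*, the TGF-β ligand made in sensory neurons, had 30.7, 46.7 and 35.9 CPM in the replicate 2 libraries, against 82.9, 74.9 and 70.2 CPM in the replicate 1 libraries (log2 fold change -1.03, SE 0.16, edgeR adjusted p = 0.0262), and *dbl-1*, the ligand of the body size pathway, fell (log2 fold change -0.74 ± 0.12). Their shared receptor gene *daf-4* had a log2 fold change of 0.82 ± 0.18 and missed the threshold (adjusted p = 0.0522, edgeR). Of the AMP kinase subunits, *aak-1* fell (log2 fold change -0.84 ± 0.18) and *aak-2* had a log2 fold change of 0.49 ± 0.11 without passing the test (adjusted p = 0.0546, edgeR). The TOR genes *let-363* and *daf-15* had log2 fold changes of -0.04 and -0.03. Without the WT libraries no gene of the list was called, without the *nfki-1(cer2)* libraries 2 fell and none rose, and without the *ikb-1(cer9)* libraries 5 rose and 6 fell.

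Of 34 insulin-like peptide genes tested, 5 fell and 2 rose (20.6% called, against 6.89% of all tested genes), with a median of -0.29. *ins-4*, which lies beside *ins-5* and *ins-6* on chromosome II and promotes growth when food is present, had 0.842, 1.12 and 0.868 CPM in the replicate 2 libraries, against 3.30, 5.19 and 4.13 CPM in the replicate 1 libraries (log2 fold change -2.15, SE 0.21, edgeR adjusted p = 0.0112). *ins-6* had 0.970, 1.74 and 0.954 CPM in the replicate 2 libraries, against 4.05, 3.02 and 2.72 CPM in the replicate 1 libraries (log2 fold change -1.42, SE 0.30, edgeR adjusted p = 0.0451). Both were low throughout, and the groups did not overlap, as for 19.9% of all tested genes in this direction. *daf-28*, of similar action, had a log2 fold change of -1.07 ± 0.28 and did not pass (adjusted p = 0.0658, edgeR). *ins-26*, *ins-11* and *ins-12* fell, with log2 fold changes of -1.14 ± 0.16, -2.27 ± 0.42 and -2.304 ± 0.45. *ins-17* had a log2 fold change of 0.03 ± 0.11 and was not called. Of those that rose, *ins-27* had 23.9, 21.2 and 14.6 CPM in the replicate 2 libraries, against 5.03, 6.65 and 10.0 CPM in the replicate 1 libraries (log2 fold change 1.48, SE 0.32, edgeR adjusted p = 0.0484), and *ins-21* had 0.824, 1.37 and 1.006 CPM in the replicate 2 libraries, against 0.296, 0.492 and 0.336 CPM in the replicate 1 libraries (log2 fold change 1.51, SE 0.29, edgeR adjusted p = 0.0381).

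Genes known to be raised by active DAF-16 (class 1) rose in 4 of 16 cases, with a median of 0.38. That is 25%, where 3.96% of all tested genes rose. *mtl-1*, a metallothionein gene, had 103.999, 69.5 and 97.4 CPM in the replicate 2 libraries, against 15.4, 14.5 and 45.4 CPM in the replicate 1 libraries (log2 fold change 2.04, SE 0.31, edgeR adjusted p = 0.0245). The linker histone gene *hil-1*, *hsp-12.6* and the lysozyme gene *lys-7* rose by 1.00 ± 0.12, 2.89 ± 0.43 and 0.74 ± 0.12 on the log2 scale. *sod-3*, the usual reporter of DAF-16 activity, had 2.36, 1.63 and 1.93 CPM in the replicate 2 libraries, against 0.764, 0.905 and 2.097 CPM in the replicate 1 libraries and did not pass (adjusted p = 0.237, edgeR). Genes lowered by active DAF-16 (class 2) rose in 2 of 7 cases, *dod-22* by 1.78 ± 0.17 on the log2 scale and *dod-20* by 2.66 ± 0.34, with a median of 0.53. The share that rose was 28.6%, against 3.96% of all tested genes, in a list of only 7. Neither class had a member that fell.

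More genes of DNA replication and the cell cycle rose than fell. Of 32 tested, 10 rose and 1 fell (*cki-1*), a share called of 34.4% against 6.89% of all tested genes. The median was 0.42. The summed level of the list was 831 to 946 CPM in the replicate 2 libraries, against 589 to 653 CPM in the replicate 1 libraries. *rnr-2*, the small subunit of ribonucleotide reductase, had 69.5, 71.8 and 72.3 CPM in the replicate 2 libraries, against 39.6, 38.98 and 35.8 CPM in the replicate 1 libraries. The libraries of a replicate number lay close together (log2 fold change 0.90, SE 0.11, edgeR adjusted p = 0.0165). The 2 groups were apart, as for 17.6% of all tested genes in this direction. *rnr-1*, its large subunit, and *tyms-1*, the thymidylate synthase, rose by 0.73 ± 0.14 and 0.77 ± 0.13 on the log2 scale.

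Of the 6 subunits of the MCM helicase, *mcm-4*, *mcm-5* and *mcm-7* rose by 0.72 ± 0.14, 0.74 ± 0.11 and 0.90 ± 0.17 on the log2 scale. *mcm-2*, *mcm-3* and *mcm-6* had log2 fold changes of 0.34 ± 0.19, 0.53 ± 0.15 and 0.57 ± 0.13 and did not pass. *mcm-5* had 72.2, 75.2 and 79.1 CPM in the replicate 2 libraries, against 48.2, 43.1 and 44.8 CPM in the replicate 1 libraries (log2 fold change 0.74, SE 0.11, edgeR adjusted p = 0.0243). *pcn-1*, the sliding clamp, rose by 0.68 ± 0.15 on the log2 scale, close to the threshold (adjusted p = 0.0497, edgeR). Among mitotic genes, *cyb-3*, a B-type cyclin, had 20.8, 15.2 and 20.9 CPM in the replicate 2 libraries, against 9.18, 7.57 and 11.5 CPM in the replicate 1 libraries (log2 fold change 1.02, SE 0.13, edgeR adjusted p = 0.0188), and *cdk-1* and *plk-1* rose by 0.77 ± 0.13 and 0.69 ± 0.12 on the log2 scale. The G1 cyclin genes *cyd-1* and *cye-1* had log2 fold changes of -0.06 ± 0.26 and -0.11 ± 0.16.

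The 10 increases had log2 fold changes of 0.68 to 1.02. With library totals as the scaling the median was 0.25 and 9 genes rose. Without the WT libraries and without the *nfki-1(cer2)* libraries 0 of them were called, with medians of 0.53 and 0.35, and without the *ikb-1(cer9)* libraries 12 rose. Of the 31 histone genes tested none was called, and their median of 0.53 came to 0.54, 1.16 and 0.04 within the strain pairs. The other 41 of 72 histone genes were not tested, and 36 of the 72 were at 0 in all 6 libraries. Reads that align to more than 1 gene copy were not counted, so the tested genes may not stand for all histone genes. None of 81 cytosolic ribosomal protein genes was called in either direction (median 0.08).

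**Figure D4:**
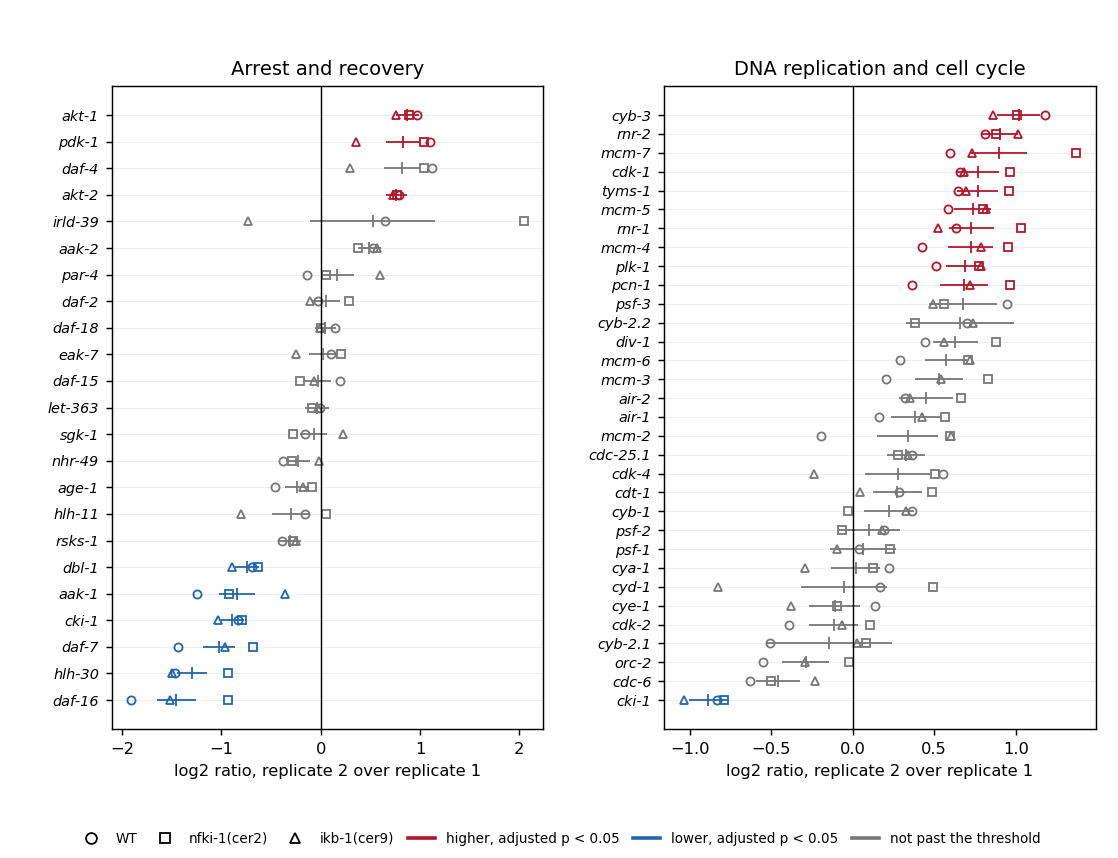
Log2 ratio of replicate 2 over replicate 1 within each strain, with the fitted value and its SE, for the 23 tested genes of L1 arrest and recovery (left) and the 32 of DNA replication and the cell cycle (right), in red where they rose, blue where they fell and grey where they did not pass. *akt-1*, *pdk-1* and *akt-2* are red on the left, *daf-16* and *hlh-30* are the lowest rows there, and *cki-1* is the only blue gene on the right panel.

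Enzymes that modify toxins and lipids were split by family and by member. Of 66 UDP-glucuronosyltransferase genes, which attach sugars to small lipid-soluble molecules, 10 rose and 9 fell, a share of 28.8% against 6.89% of all tested genes in either direction. Under library totals 9 rose and 14 fell. *ugt-19* had 72.0, 60.9 and 119.7 CPM in the replicate 2 libraries, against 10.9, 11.7 and 30.8 CPM in the replicate 1 libraries (log2 fold change 2.35, SE 0.17, edgeR adjusted p = 0.00657), and *ugt-34* had 3.52, 3.07 and 9.75 CPM in the replicate 2 libraries, against 23.7, 18.4 and 37.6 CPM in the replicate 1 libraries (log2 fold change -2.41, SE 0.19, edgeR adjusted p = 0.00706). The groups were apart in both genes, in opposite directions, as for 17.6% (higher) and 19.9% (lower) of all tested genes. *ugt-62* had 514.7, 455 and 330.0 CPM in the replicate 2 libraries, against 175, 170.0 and 226 CPM in the replicate 1 libraries (log2 fold change 1.18, SE 0.22, edgeR adjusted p = 0.0355). On chromosome V the neighbouring genes *ugt-12*, *ugt-11*, *ugt-8* and *ugt-13* all fell.

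Of 73 cytochrome P450 genes, oxidases of drugs, sterols and fatty acids, 5 rose and 5 fell (13.7% called, against 6.89% of all tested genes). *cyp-33C8* had 188, 152 and 228 CPM in the replicate 2 libraries, against 45.3, 37.99 and 55.4 CPM in the replicate 1 libraries (log2 fold change 2.03, SE 0.11, edgeR adjusted p = 0.00307). Its levels did not overlap, as for 17.6% of all tested genes in this direction. *cyp-36A1*, which acts in the response to low oxygen and HIF-1, had 32.01, 48.5 and 44.5 CPM in the replicate 2 libraries, against 8.93, 17.7 and 15.4 CPM in the replicate 1 libraries (log2 fold change 1.61, SE 0.13, edgeR adjusted p = 0.00713). *cyp-14A5*, *cyp-37B1* and *cyp-13A4* rose by 1.42 ± 0.13, 1.96 ± 0.24 and 3.95 ± 0.39 on the log2 scale. *cyp-33C7* fell (log2 fold change -0.66 ± 0.13), as did the 4 *cyp-35* genes.

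Glutathione S-transferase genes rose in 6 of 44 cases and fell in none (13.6%, where 3.96% of all tested genes rose). Apart from *gst-19* the changes were small. *gst-28*, *gst-29* and *gst-27*, which adjoin on chromosome II, rose by 1.007 ± 0.15, 0.84 ± 0.17 and 0.49 ± 0.10 on the log2 scale, and *gst-42* and *gst-21* by 0.73 ± 0.16 and 0.91 ± 0.17. The median of the family was 0.15 and turned to -0.01 with library totals. Of 25 genes of the oxidative stress response, the nitrilase gene *nit-1* had 153, 239.8 and 141 CPM in the replicate 2 libraries, against 39.8, 38.03 and 61.9 CPM in the replicate 1 libraries (log2 fold change 1.93, SE 0.27, edgeR adjusted p = 0.0221), and *dhs-8*, a short-chain dehydrogenase gene, rose by 1.83 ± 0.18 on the log2 scale. The other 23 were not called, and the share called, 8%, was near the 6.89% of all tested genes.

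**Figure D5:**
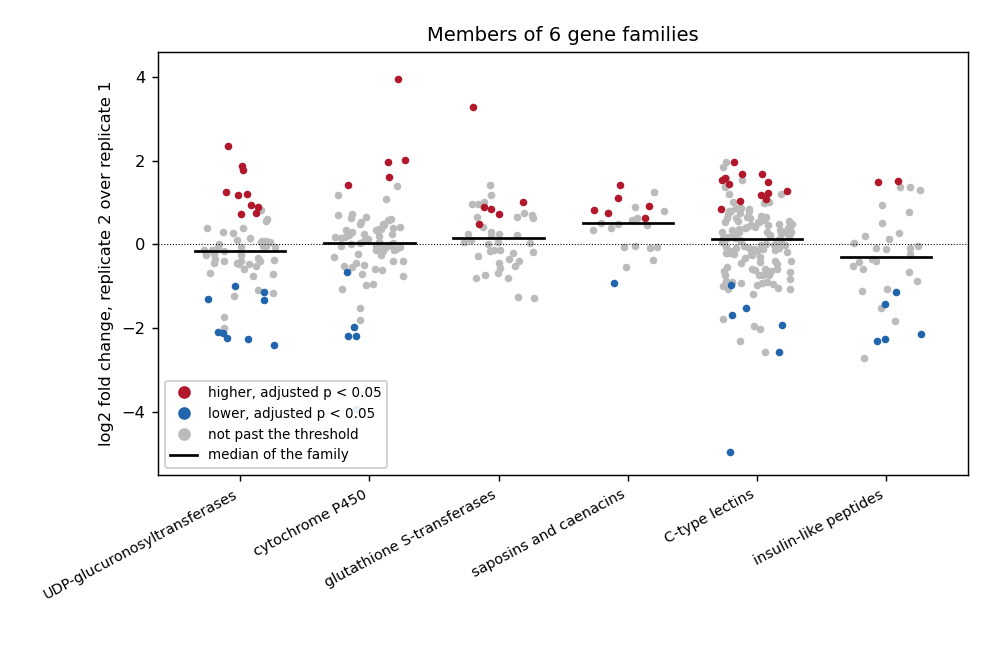
Fitted log2 fold changes of all tested members of 6 gene families, replicate 2 over replicate 1, with members that rose in red, those that fell in blue, the others in grey and the family median as a black line. The called UDP-glucuronosyltransferase genes lie on both sides (10 and 9), and the called glutathione S-transferase genes are all above 0 (6). The group labelled saposins and caenacins, which leaves out the caenacin genes *cnc-10* and *cnc-7*, has a median of 0.51.

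The lists of gut and defence genes differed in direction. Of 23 tested genes of a list named for gut saposins and caenacins, 6 rose and 1 fell, with a median of 0.51. The share called was 30.4%, against 6.89% of all tested genes. All 6 that rose are saposin-like (*spp*) genes. The caenacin genes *cnc-10* and *cnc-7* fell and were counted in the epidermal list instead. *spp-5*, which encodes a pore-forming peptide that kills ingested bacteria, had 662, 673 and 510.4 CPM in the replicate 2 libraries, against 305, 309 and 351 CPM in the replicate 1 libraries (log2 fold change 0.93, SE 0.17, edgeR adjusted p = 0.0335). *spp-4* and *spp-2*, beside it on chromosome X, rose by 1.42 ± 0.19 and 1.12 ± 0.21 on the log2 scale, and *spp-18*, *spp-23* and *spp-8* by 0.82 ± 0.12, 0.76 ± 0.13 and 0.64 ± 0.13. Y77E11A.14 fell (log2 fold change -0.92 ± 0.16).

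Of 15 aspartic protease genes of the *asp* family 3 rose (20%, where 3.96% of all tested genes rose), with a family median of 0.74. Within the strain pairs the median was 1.07, 0.93 and 0.23. *asp-14* had 336, 384 and 240.1 CPM in the replicate 2 libraries, against 111, 97.8 and 130.3 CPM in the replicate 1 libraries (log2 fold change 1.49, SE 0.22, edgeR adjusted p = 0.0230), and *asp-4*, the lysosomal cathepsin D, had 224, 242 and 199 CPM in the replicate 2 libraries, against 105, 102 and 156 CPM in the replicate 1 libraries (log2 fold change 0.90, SE 0.19, edgeR adjusted p = 0.0484). *asp-16* had 4.56, 0.390 and 3.96 CPM in the replicate 2 libraries, against 0.343, 0.270 and 0.400 CPM in the replicate 1 libraries, and the *nfki-1(cer2)* pair differed less than the others (log2 fold change 2.95, SE 0.53, edgeR adjusted p = 0.0334). The cathepsin Z gene *cpz-1* fell (log2 fold change -0.75 ± 0.11).

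C-type lectin genes, many of them gut-secreted and infection-responsive, rose in 13 and fell in 6 of 146 cases, with a median of 0.13. Under library totals 14 rose and 13 fell, and the median turned to -0.03. *clec-10* had 81.0, 42.1 and 61.2 CPM in the replicate 2 libraries, against 20.4, 16.02 and 19.7 CPM in the replicate 1 libraries (log2 fold change 1.68, SE 0.15, edgeR adjusted p = 0.00904), and *clec-65*, *clec-67*, *clec-42* and *clec-265* rose by 0.84 ± 0.13, 1.598 ± 0.34, 1.19 ± 0.25 and 1.29 ± 0.25 on the log2 scale. The 6 that fell were at low levels in all libraries. *clec-22* had 0.0366, 0.0508 and 0.0174 CPM in the replicate 2 libraries, against 1.39, 1.27 and 0.800 CPM in the replicate 1 libraries (log2 fold change -4.96, SE 0.42, edgeR adjusted p = 0.00439). Of 18 infection response genes 3 rose, C17H12.8 most, with 516.95, 504 and 214 CPM in the replicate 2 libraries, against 90.6, 56.4 and 73.6 CPM in the replicate 1 libraries (log2 fold change 2.41, SE 0.31, edgeR adjusted p = 0.0184). The other called members were *dod-22* and *clec-67*, and the share that rose was 16.7%, where 3.96% of all tested genes rose. Of 38 genes of the intracellular pathogen response 1 rose and 2 fell, and of 22 chitinase-like genes none rose and 1 fell. These shares, 7.89% and 4.55%, are near the 6.89% called among all tested genes. Of 19 epidermal antimicrobial peptide genes 1 rose and 3 fell (21.1% called, against 6.89% of all tested genes). The antimicrobial peptide gene *nlp-28* rose by 0.77 ± 0.13 on the log2 scale, while *nlp-31*, *cnc-10* and *cnc-7* fell, with log2 fold changes of -1.51 ± 0.28, -0.58 ± 0.12 and -1.09 ± 0.23.

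Of 12 intestinal markers none rose and 1 fell, a share of 8.33% that is near the 6.89% called among all tested genes. Their median log2 fold change was 0.14, and -0.11, 0.44 and -0.02 within the strain pairs. Their summed level was 9198 to 12442 CPM in the replicate 2 libraries, against 6350 to 8527 CPM in the replicate 1 libraries. Most of this sum was the protease gene *asp-1*, which had 6680.5, 7412 and 5320.1 CPM in the replicate 2 libraries, against 3734, 3196 and 4770 CPM in the replicate 1 libraries, and was not called (edgeR adjusted p = 0.151). The marker that fell was *elt-2*, the GATA factor of the gut, with 13.4, 15.99 and 10.2 CPM in the replicate 2 libraries, against 28.6, 46.3 and 39.4 CPM in the replicate 1 libraries (log2 fold change -1.53, SE 0.18, edgeR adjusted p = 0.0161). In whole animals a smaller or larger tissue and less or more RNA per cell cannot be told apart, and the part of the tissue in the gut genes was not tested.

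Genes of central metabolism gave a small set of calls. In the vitamin B12 and propionate list 3 of 15 rose and none fell (20%, where 3.96% of all tested genes rose). *mce-1*, the methylmalonyl-CoA epimerase, had 212, 174 and 191 CPM in the replicate 2 libraries, against 56.6, 76.5 and 91.0 CPM in the replicate 1 libraries (log2 fold change 1.39, SE 0.19, edgeR adjusted p = 0.0193). *mmaa-1*, which handles the cofactor of the next enzyme, had 201, 156 and 189 CPM in the replicate 2 libraries, against 59.9, 80.6 and 91.2 CPM in the replicate 1 libraries (log2 fold change 1.25, SE 0.18, edgeR adjusted p = 0.0221), and *mtrr-1*, the methionine synthase reductase, rose by 0.66 ± 0.11 on the log2 scale. In the methionine cycle 3 of 15 rose and none fell, again 20%. *ahcy-1*, which breaks down S-adenosylhomocysteine, had 1476, 2561 and 1918 CPM in the replicate 2 libraries, against 892, 879 and 1054 CPM in the replicate 1 libraries (log2 fold change 1.04, SE 0.22, edgeR adjusted p = 0.0448), *nhr-114* rose by 1.012 ± 0.13 on the log2 scale and the low *sams-5* by 2.64 ± 0.49.

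Of 32 fasting and lipid breakdown genes 2 rose and 2 fell (12.5% called, against 6.89% of all tested genes). *fbp-1*, the gluconeogenic fructose bisphosphatase, had 739, 725 and 663 CPM in the replicate 2 libraries, against 277, 371 and 398 CPM in the replicate 1 libraries (log2 fold change 1.04, SE 0.17, edgeR adjusted p = 0.0287), and *ech-9*, an enoyl-CoA hydratase gene, had 36.2, 62.7 and 29.7 CPM in the replicate 2 libraries, against 7.48, 8.14 and 9.06 CPM in the replicate 1 libraries (log2 fold change 2.31, SE 0.24, edgeR adjusted p = 0.0118). *hlh-30* fell, and so did F58F9.7 (log2 fold change -1.014 ± 0.14). *pod-2*, the acetyl-CoA carboxylase that starts fatty acid synthesis, had 302, 353 and 407 CPM in the replicate 2 libraries, against 765, 755 and 741 CPM in the replicate 1 libraries. The replicate 1 libraries lay close together, and every replicate 2 library was below them, as for 19.9% of all tested genes (log2 fold change -1.1002, SE 0.15, edgeR adjusted p = 0.0200). The elongase gene *elo-5* rose by 0.57 ± 0.12 on the log2 scale. For trehalose, the storage sugar of starved larvae, the phosphatase gene *gob-1* rose by 0.69 ± 0.15 on the log2 scale and the trehalase gene *tre-5* fell (log2 fold change -1.82 ± 0.23).

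Cuticle and molting genes were divided. Of 31 molting genes 3 rose and 3 fell (19.4% called, against 6.89% of all tested genes). *mlt-7*, the peroxidase that crosslinks the cuticle, had 31.4, 40.2 and 23.3 CPM in the replicate 2 libraries, against 165, 121 and 125 CPM in the replicate 1 libraries (log2 fold change -2.14, SE 0.19, edgeR adjusted p = 0.00994). *mlt-11* and *mlt-9* rose with *mlt-10*, by 1.15 ± 0.15 and 1.19 ± 0.19 on the log2 scale, and *let-4* and *grh-1* fell, with log2 fold changes of -0.88 ± 0.19 and -0.83 ± 0.18. The cuticle collagen genes *dpy-17* and *dpy-7* rose by 1.63 ± 0.27 and 1.68 ± 0.35 on the log2 scale, and *rol-6*, with at most 0.480 CPM in any library, fell (log2 fold change -2.998 ± 0.65). In the *dpy* family, 5 of 23 rose and *dpy-31*, a procollagen-cleaving metalloprotease, fell (log2 fold change -0.97 ± 0.15). The share of this family called was 26.1%. Of 116 *col* collagen genes 1 rose and 2 fell, a share of 2.59% that is below the 6.89% of all tested genes. Of 47 hedgehog-related genes 3 rose and none fell, a share of 6.38% that is no higher than the 6.89% of all tested genes. *wrt-2* and *grl-7* rose by 1.48 ± 0.25 and 1.66 ± 0.31 on the log2 scale, and *grd-10* had 63.8, 64.2 and 52.4 CPM in the replicate 2 libraries, against 15.6, 10.9 and 35.7 CPM in the replicate 1 libraries (log2 fold change 1.72, SE 0.37, edgeR adjusted p = 0.0497).

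*lin-14*, which sets L1 cell fates and declines at the end of the stage, had 149, 136 and 132 CPM in the replicate 2 libraries, against 288, 194 and 292 CPM in the replicate 1 libraries (log2 fold change -0.87, SE 0.15, edgeR adjusted p = 0.0318). It was the 1 called gene of 10 tested timing genes, a share of 10% against 6.89% of all tested genes. *nhr-85*, a nuclear receptor of the molting oscillator, fell (log2 fold change -1.18 ± 0.11), and a stretch of 835 of its 2516 exonic bases is shared with *npr-14* on the other strand.

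Nuclear hormone receptor genes, transcription factors of metabolism and development, rose in 18 and fell in 16 of 236 cases (median -0.07), and under library totals in 14 and 42. The share called was 14.4%, against 6.89% of all tested genes. *nhr-62*, which acts in the response to diet restriction, had 75.9, 83.2 and 78.4 CPM in the replicate 2 libraries, against 15.2, 21.97 and 24.6 CPM in the replicate 1 libraries (log2 fold change 1.97, SE 0.15, edgeR adjusted p = 0.00687). *nhr-115* rose by 1.78 ± 0.14 on the log2 scale and *nhr-21* by 1.37 ± 0.16, while *nhr-119*, *nhr-27* and *nhr-88* fell, with log2 fold changes of -1.07 ± 0.12, -1.16 ± 0.17 and -0.90 ± 0.14.

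Chemoreceptor genes, read by sensory neurons, rose in 7 and fell in 21 of 571 cases. The share called, 4.90%, was below that of all tested genes (6.89%). The name pattern behind this list also took in *srp-2*, a serpin gene, which rose. Most called members were near the limit of detection. *srw-87* had 0.0915, 0.0678 and 0 CPM in the replicate 2 libraries, against 2.04, 1.35 and 1.34 CPM in the replicate 1 libraries (log2 fold change -4.85, SE 0.52, edgeR adjusted p = 0.0112), and *srh-281* and *sru-22* were likewise low in every library, at most 0.635 and 0.280 CPM, and fell.

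Genes annotated as ncRNA lay mostly on the lower side. Of 1594 tested, 13 rose and 66 fell, and the share called, 4.96%, was below the 6.89% of all tested genes. Of the 1594, 267 had a log2 fold change above 0 and the median was -0.65, beside 0.02 for 15598 protein-coding genes. Within the strain pairs it was -0.52, -0.51 and -0.75. Fewer genes were detected in replicate 2 in each strain pair, and the part of this in the result was not tested. The share of reads on no gene was lower in replicate 2 of the WT and *nfki-1(cer2)* pairs, but not of the *ikb-1(cer9)* pair, at 16.18% in replicate 2 and 15.5% in replicate 1.

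Markers of other tissues and stages showed few calls. None of 26 germ cell genes, 17 oocyte and eggshell genes, 6 sperm genes, 2 vitellogenin genes or 19 muscle genes was called. With 6.89% of all tested genes called, the absence of calls in lists this short says little. The tested sperm and vitellogenin genes were those left of 61 and 6 after the filter. The vitellogenins, yolk genes of adults, summed to 0.677 to 0.915 CPM in the replicate 2 libraries, against 1.65 to 3.38 CPM in the replicate 1 libraries, and the germ cell list to 380 to 398 CPM in the replicate 2 libraries, against 373 to 439 CPM in the replicate 1 libraries. Of 19 neuronal genes 2 rose, the glutamate transporter gene *eat-4* by 0.62 ± 0.12 and *bas-1*, an enzyme of serotonin and dopamine synthesis, by 0.65 ± 0.14. Of 12 pharyngeal genes *ceh-22* fell (log2 fold change -1.11 ± 0.21). In the hypodermal list of 10 genes only *dpy-7* rose and none fell, 3 had a log2 fold change above 0, and the median was -0.20. Of 10 genes of embryos 1 rose, *sdz-28*, at under 1 CPM.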

How the data were processed

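RNA-seq counts of 6 L1 libraries were analysed. Per the methods and the submitters' processing notes, the authors trimmed the reads, aligned them to WBcel235 with Bowtie2, kept unique alignments and deposited whole-number counts per gene from HTSeq (CASAVA 1.4 and FastQC are also named). Bowtie2 does not split reads over introns, and uniquely aligned reads leave similar gene copies undercounted. The strand setting of the counting is not given in the sources used here, so overlapping genes on opposite strands cannot be told apart. The extract protocol in the labels also describes cell dissociation and sorting, which the L1 samples are not stated to have passed through. Rows for reads on no gene were left out of library sizes, and their share is given with the depth.

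Of 42048 genes in each deposited table of counts, 18280 passed edgeR's filterByExpr (minimum count 10). They were scaled by TMM and tested with edgeR's quasi-likelihood test (edgeR 4.0.16 in R 4.3.3), with strain and replicate number as terms and Benjamini-Hochberg adjustment over all genes tested, on 2 residual degrees of freedom. A call is an adjusted p below 0.05. CPM and log2 fold changes were computed from the counts. Positions are from an annotation of WBcel235 in which 41643 genes were matched. The fit was tested on simulated data first.

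The comparison and the gene lists were chosen with earlier results of these data known. Genes named are the 12 largest changes each way (mean of at least 10 CPM), up to 3 called members of smallest p and the member of highest CPM in each list, and likewise called members of 6 name families. All other genes, among them the remaining members of the lists of hypoxia, arrest, insulin-like peptides and replication, were chosen after their values were seen. Alternatives were DESeq2 1.42.0, other scalings, filters, thresholds and edgeR options, a fit without the strain term and leaving out each strain.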

Additional observations from a re-analysis of the deposited data

How the results depend on the processing

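Counts of genes higher in replicate 2 (723) and lower (536) moved with several choices, and the called genes named by the rule kept their direction under every alternative fitted. DESeq2 called 1480 higher and 1034 lower. Library totals turned the balance, with 651 higher and 1748 lower, and turned the medians of the C-type lectins (-0.03), glutathione S-transferases (-0.01), cytochrome P450 (-0.11), hedgehog-related (-0.05), molting (-0.14) and epidermal antimicrobial peptide genes (-0.12) below 0. With no filter on low counts there were 425 higher and 214 lower. An adjusted p below 0.01 left 38 and 15, and 408 and 333 had a log2 change of 1 or more in size. Leaving out 1 strain gave between 39 and 1867 higher and between 11 and 1169 lower, lowest without WT and highest without *ikb-1(cer9)*. With 2 strains left there are fewer libraries and degrees of freedom, and the cause of the difference between strains left out was not tested. Of 123 named genes refitted (the called ones with *nfki-1* and *ikb-1*), 82 lost their call without *nfki-1(cer2)*, more than that without WT and 1 without *ikb-1(cer9)*, and the genes that lost it kept their direction. The edgeR options, RLE size factors and a filter of at least 10 counts in every library gave 595 to 746 higher and 409 to 544 lower. The HIF-1 and sulfide list kept between 6 and 10 of 12 genes called at the same threshold.

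The libraries are paired because those of a pair share a strain. Within the pairs, deviations from the replicate means correlated at -0.15 in WT, 0.17 in *nfki-1(cer2)* and, for the *ikb-1(cer9)* pair, -0.07 (across genes, which are not independent). With no replicate block, that is without the strain term, 1291 genes were higher and 1266 lower, and 1176 of the 1259 calls of the paired fit remained in the same direction.

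Genes under about 1 CPM, among them most called chemoreceptor genes and several lectin and insulin-like peptide genes, rest on few reads, and a fold change there is less certain.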
